A study of Mus musculus with 6 samples.

Results

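The histone genes of NSC-34 cells were followed across 6 mRNA libraries. They were taken as every listed gene whose symbol names a replication-cluster histone (Hist1 to Hist4, classes H1, H2A, H2B, H3 and H4) or a histone encoded outside those clusters (H1f0, H1fx, the H2af genes, H3f3a and H3f3b). The rule used names alone and found 75 of 23038 genes, 63 of them Hist members and 12 of them here called replacement members. NSC-34 is a mouse hybrid line of neuroblastoma and spinal cord motor neuron, grown in serum medium. In 3 libraries the cells had received a control siRNA (siNC). In the other 3 libraries they had received siRNA against Qk (siQk), the gene of the Quaking RNA-binding proteins. The labels call the samples biological replicates and state that 3 different siRNAs against Qk were used, without saying which library had which. No other genetic change or treatment is given for either group. Because only this line was used, values describe a transformed, dividing hybrid and not a motor neuron in tissue.

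Histones package DNA into nucleosomes, each built around H2A, H2B, H3 and H4, while H1 sits on the linker DNA between them. The clustered genes are switched on in S phase, when new DNA must be packaged, and typically have no introns (59 of the 63 Hist members have a single exon in the annotation used here, and Hist1h2bc has 2). Their mRNAs are the best known animal mRNAs without a poly-A tail: they end just after a short RNA stem-loop that is bound by Slbp, the stem-loop binding protein. Replacement histones are made throughout the cell cycle from ordinary polyadenylated mRNAs and enter chromatin without replication. Some clustered genes can also use a poly-A site farther downstream, which is described mostly in cells that have left the cycle. These libraries were made by poly-A selection, so tailless histone mRNA is expected to be lost before sequencing, and a Hist level here is a level of the captured RNA and not of all histone mRNA.

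The stem-loop sites of 3 tested Hist members and of H2afx are shown because the presence of this end signal, and of sequence beyond it, divides the set. Sequences were read from GENCODE M21 transcripts (GRCm38), with the 16 bases of the stem and loop in capitals and 5 flanking bases on either side. The positions are chr13:23739507-23739532 for Hist1h1c, chr11:58949344-58949369 for Hist3h2ba, chr11:58955167-58955192 for Hist3h2a and chr9:44335235-44335260 for H2afx, all on the plus strand.
Hist1h1c: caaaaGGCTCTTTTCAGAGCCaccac
Hist3h2ba: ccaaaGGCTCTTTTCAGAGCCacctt
Hist3h2a: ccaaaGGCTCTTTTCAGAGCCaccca
H2afx: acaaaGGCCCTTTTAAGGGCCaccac
These sites lie in the 3′ untranslated region, 24, 28, 41 and 46 bases after the stop codon. A match to the histone stem-loop consensus with all 6 stem pairs able to form was present after the stop codon in annotated transcripts of 43 of 63 Hist members and of 1 of 12 replacement members, H2afx. Over all protein-coding genes of the annotation, 69 of 21951 had such a match (0.314%), 25 of them outside the 75 members. Of these 25, 4 also carry histone symbols but are not among the members (H2bfm, Hist1h2ad, Hist1h2ap and Hist2h2aa2). The stem followed the class: all 31 matching H1, H2A, H2B and H3 members of the Hist set had a stem that opens with ggctc, and all 12 matching H4 members had ggccc or ggtcc. H2afx had ggccc, the form of the H4 members, although it encodes an H2A. No match was found in the annotated transcripts of Hist1h2bc and Hist2h2be, which says only that these letters are not in that annotated window.

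Promoters of 3 Hist members are shown, those of the tested Hist members that had a RefSeq entry, because their levels by library are described below. Each is the 150 bases before the RefSeq start (GRCm38.p6, plus strand), at chr13:23738657-23738806 for Hist1h1c, chr11:58948761-58948910 for Hist3h2ba and chr11:58954535-58954684 for Hist3h2a. Capitals mark matches, on either strand, to 4 short motifs, which are the box of letters CCAAT, the octamer of letters ATTTGCAT, a common form of the TATA box of letters TATAAA, and the H1 box of letters AAACACA.
Hist1h1c: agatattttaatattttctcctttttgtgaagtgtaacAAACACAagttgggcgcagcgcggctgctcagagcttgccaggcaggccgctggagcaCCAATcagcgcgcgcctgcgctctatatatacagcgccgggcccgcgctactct
Hist3h2ba: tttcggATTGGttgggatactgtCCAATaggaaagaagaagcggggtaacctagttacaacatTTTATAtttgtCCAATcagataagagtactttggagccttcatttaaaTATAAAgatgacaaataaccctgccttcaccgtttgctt
Hist3h2a: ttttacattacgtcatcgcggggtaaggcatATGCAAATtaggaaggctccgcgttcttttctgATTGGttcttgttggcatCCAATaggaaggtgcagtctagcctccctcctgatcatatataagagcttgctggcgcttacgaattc
In the whole 300-base promoter window (250 bases before and 50 after the start), CCAAT was present in 49 of 58 Hist members with a RefSeq entry, TATAAA in 34, the octamer in 13 and AAACACA in 9. The same letters were present in 37.9%, 14.2%, 1.75% and 7.14% of 27025 promoter windows of all genes. They were spread by class. The octamer was found in 7 of 15 H2A and 6 of 15 H2B members and in no H1, H3 or H4 member, AAACACA in 5 of 6 H1 members, and CCAAT in every H1, H2A, H2B and H3 member but in 3 of 12 H4 members. Matches of different motifs can share end bases, and a match is a description of the sequence only.

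Library totals ran from 43000503 to 53565950 counts, and 16057 to 16516 genes had a count. Qk, the siRNA target, had 8.18 to 14.9 RPKM (reads relative to the exon length of the gene and to all reads counted) in the siNC libraries and 1.10 to 1.71 RPKM in the siQk libraries. This was the only gene called in the main comparison (quasi-likelihood test of edgeR, adjusted p 0.0149). For the Hist members siNC replicate 3 stood far above the other libraries, and values that it moves strongly are given with and without it. The label of the line was checked against marker genes. Neuronal and neuroblastoma transcripts such as Prph, Tubb3, Phox2a and Hand2 were abundant. Of the motor neuron markers, the transcription factor genes Isl1 and Isl2 and Slc18a3, the vesicular acetylcholine transporter, were present (4.75 to 9.63, 2.65 to 4.96 and 1.56 to 2.29 RPKM), while Chat, the acetylcholine-synthesizing enzyme, and Mnx1 reached at most 0.141 and 0.0944 RPKM in any library. Isl1 was the only marker at an unadjusted p under 0.05, with a log2 difference of 0.82 (SE 0.10) toward siQk and an adjusted p of 0.9996 in edgeR. The 15 markers of glial, immune, stromal and endothelial cells summed to 8.41 to 13.5 RPKM per library, 4 to 6 of them were at 0 in each, and Aqp4 and Cx3cr1 were at 0 in all 6.

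The replacement members made up nearly all histone signal in these libraries. Their mean RPKM over 6 libraries had a median of 53.2 over 12 genes, against 0.0613 over the 63 Hist members. Summed over genes, the replacement members had 849 RPKM and the Hist members 21.6 RPKM, the latter a mean over libraries with 54.0 RPKM in siNC replicate 3 and no more than 19.2 RPKM (lowest 9.50) elsewhere. H3f3b and H3f3a, which both encode the replacement histone H3.3, led the set with means of 297 and 161 RPKM. They were followed by H1f0, a linker histone associated with slowly dividing and differentiated cells, at 124 RPKM. Next came H2afv and H2afz, the genes of H2A.Z, at 64.2 and 63.9 RPKM, H1fx, a linker histone, at 60.7 RPKM and H2afy, the gene of macroH2A1, at 45.6 RPKM. H2afx, whose product is phosphorylated at DNA breaks, had a mean of 21.9 RPKM and H2afj 9.17 RPKM. The scarce replacement members were H2afy2, the gene of macroH2A2, with 0.553 RPKM, H2afb1, with 0.0067 RPKM, and H2afy3, with 0.202 RPKM. H2afy3 is annotated as a processed pseudogene and overlaps Pvt1 on the opposite strand, and reads of the pair cannot be told apart by strand.

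Few Hist members were captured at more than a trace. Of the 63, 7 had no count in any library (Hist1h1t, Hist1h2aa, Hist1h2ba, Hist1h2bf, Hist1h2ao, Hist1h2bq and Hist1h4m), and a further 41 had a mean count under 5. At these depths a count of 0 allows up to 3 counts, or 0.056 to 0.0698 on the scale of CPM (the count scaled to the library's total), so absence was not shown for any of them. Mean counts of 10 or more were reached by 9 members, with 17 members at 10 or more counts in siNC replicate 3 and 6 to 10 in each other library. Of all counts on Hist members, 80.9% fell on 5 genes (76.7% to 84.8% in single libraries). Hist1h1c, a linker histone gene, took 32.3%, Hist3h2ba 16.7%, Hist2h2be 15.6%, Hist3h2a 9.59% and Hist1h2bc 6.63%. Over the libraries other than siNC replicate 3 these shares were 26.5%, 19.6%, 20.9%, 11.4% and 3.91%, so Hist2h2be came before Hist3h2ba, and in siQk replicate 2 it led with 216 counts against 95 for Hist1h1c. By class, H2B members were the most abundant with 10.9 RPKM summed, followed by H1 with 5.54, H2A with 1.98, H4 with 1.81 and H3 with 1.32 RPKM. Over the libraries other than siNC replicate 3 the sums were 7.92 for H2B, 3.02 for H1, 1.66 for H2A, 1.63 for H4 and 0.853 RPKM for H3, in the same order, and H1 had 18.1 RPKM in siNC replicate 3 alone. The leading gene of each class was Hist3h2ba, Hist1h1c, Hist3h2a, Hist2h4 and Hist2h3c1. The plot of levels in each library gives the 22 members with a mean of 5 or more counts over the libraries other than siNC replicate 3.

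**Figure D1:**
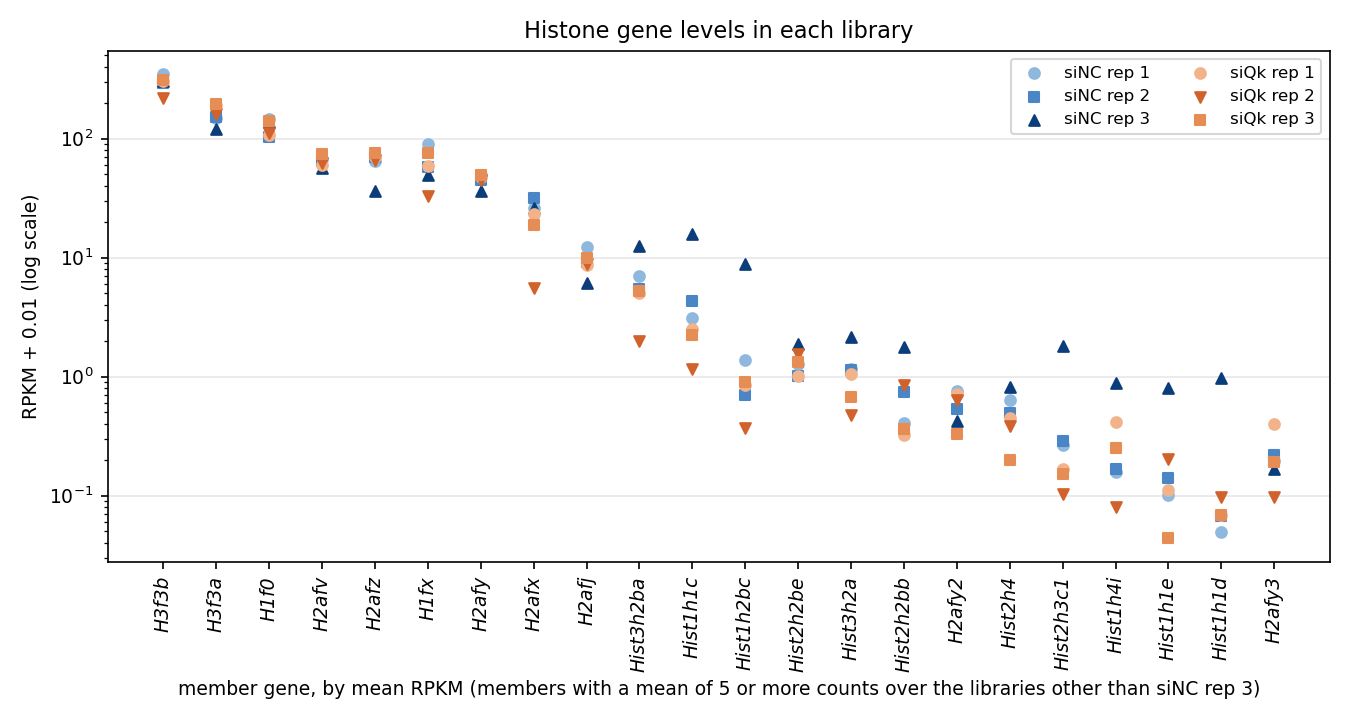
RPKM + 0.01 on a log axis for the 22 members with a mean of 5 or more counts over the 5 libraries other than siNC replicate 3, ordered by mean RPKM, with 1 point per library (blue siNC, orange siQk). H3f3b lies highest at 218 to 349 RPKM, no Hist member reaches 20 RPKM, and the siNC replicate 3 point lies at the top for each of the 11 Hist members shown and for none of the 11 replacement members.

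Levels of Hist members were set beside the annotation of their transcripts. All 9 members with a mean count of 10 or more were among the 35 whose counted model is longer than the coding sequence, and 0 of the 28 with a coding-only model reached that count. Counts grow with the length of the model, and per length the medians were close, 0.0666 RPKM for longer and 0.0599 RPKM for coding-only models. Of the 43 members with a stem-loop, 23 have 100 or more annotated bases beyond it, which a transcript ending at the stem-loop would not have. These bases come from the GENCODE annotation, and the counted models do not always include them. Hist2h4, with 1257 bases beyond its stem-loop, was counted over 348 bases. Hist1h4d and Hist1h2bh, also among the 23, were counted over the coding sequence alone. The median mean RPKM of the 23 was 0.117, and 6 of them had a mean count of 10 or more. The 12 with 31 to 99 bases beyond it had a median of 0.0816 RPKM and the 8 with 30 or fewer 0.0243 RPKM, with 0 members at a mean count of 10 in either group. Over the libraries other than siNC replicate 3 the medians were 0.0736, 0.0712 and 0.029 RPKM, so the first 2 groups were close, and 5 members with 100 or more bases had a mean count of 10 or more. Hist1h1c, Hist3h2ba and Hist3h2a have 840, 169 and 1643 bases beyond their stem-loop, and H2afx has 822. Long annotation did not go with a high level in each case, since Hist4h4 has 2445 bases and Hist1h2ac 2010 bases beyond the stem-loop and each had under 0.01 RPKM. These are descriptions over genes that share libraries and, in part, sequence. An annotated transcript is itself drawn from sequenced RNA, so it is not independent of capture.

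**Figure D2:**
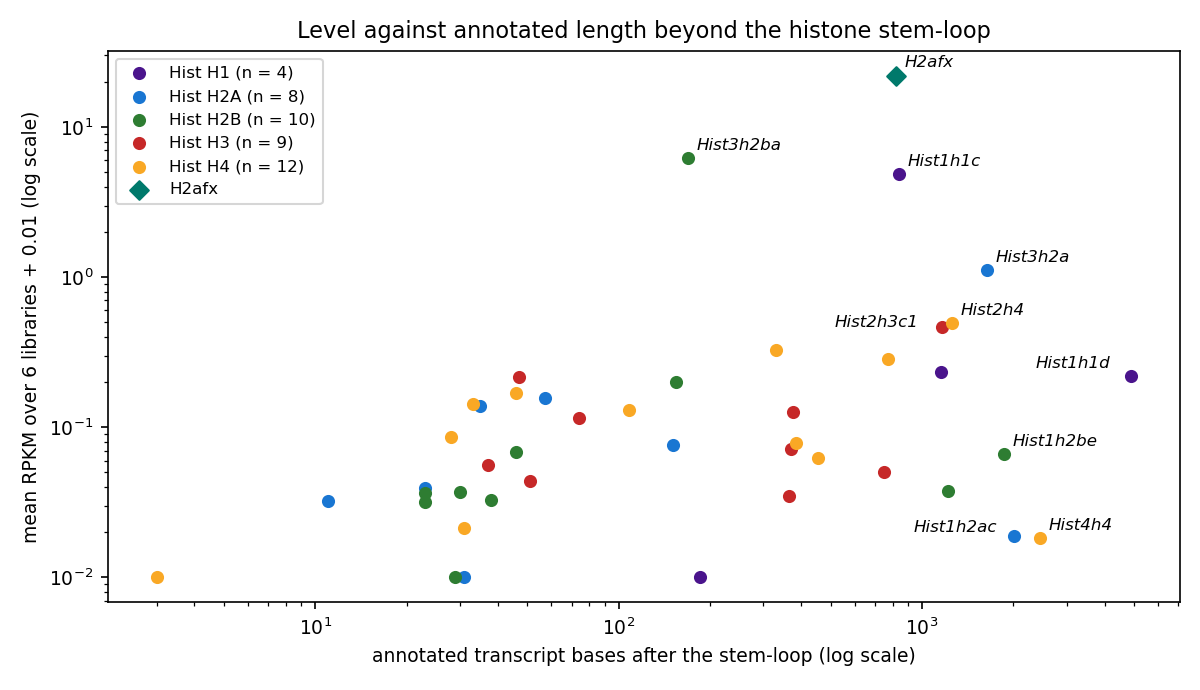
Mean RPKM over 6 libraries + 0.01 against the annotated bases that follow the stem-loop, both on log axes, with 1 point per gene for the 43 Hist members (coloured by class) and H2afx. Levels above 0.4 RPKM occur for 5 Hist members and H2afx, each with 169 or more bases beyond the stem-loop. For 4 of the 5 they occur also over the libraries other than siNC replicate 3, the exception being Hist2h3c1. The annotated bases are not always part of the counted model, as for Hist2h4.

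Near-identical copies and overlapping annotations limit these values. Hist members shared a median of 41.1% of their 75-base windows (the read length) with another annotated gene, against 6.60% for replacement members. For Hist2h3c1 and Hist2h2bb the share was 100%. Genes annotated over the same place were not left out, so these shares mix copies with overlap. Hist2h2bb shared windows with 2 other genes and overlaps Gm42743 and Gm20628, and Hist2h3c1 overlaps Gm20634. Among the tested members the share was 61.7% for H2afz, 30.6% for Hist3h2a, 27.9% for H3f3a, 27.1% for Hist1h2bc, 13.9% for Hist3h2ba, 6.66% for Hist1h1c and 0% for Hist2h2be. How the authors' counting divided such reads is not given in the sources used here, so the values of genes with high shares are uncertain. The kit does not mark strand, and exons of 29 of the 75 members overlap those of another annotated gene. Hist3h2a overlaps Trim17 on its own strand, and H2afy2 overlaps Aifm2 on the opposite strand.

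One control library stood apart for the Hist members before any comparison of the groups. Hist members summed to 19.0 CPM in siNC replicate 1 (95% Wilson interval 17.8 to 20.2), 18.2 in siNC replicate 2 (17.1 to 19.5) and 60.9 in siNC replicate 3 (58.6 to 63.3). The siQk libraries had 15.3 (14.2 to 16.5), 10.7 (9.89 to 11.6) and 14.3 (13.3 to 15.5) CPM. These intervals cover counting error only. The siNC mean was 32.7 ± 24.4 (SD, n = 3) and the siQk mean 13.5 ± 2.42 (SD, n = 3), and without siNC replicate 3 the siNC mean was 18.6 ± 0.525 (SD, n = 2). Each siQk value thus lay below each siNC value, by a small margin once siNC replicate 3 was set aside. With Hist1h1c left out the margin was smaller still, 11.47 CPM in siNC replicate 2 against 11.41 CPM in siQk replicate 1, with overlapping intervals (10.5 to 12.5 and 10.5 to 12.4).

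**Figure D3:**
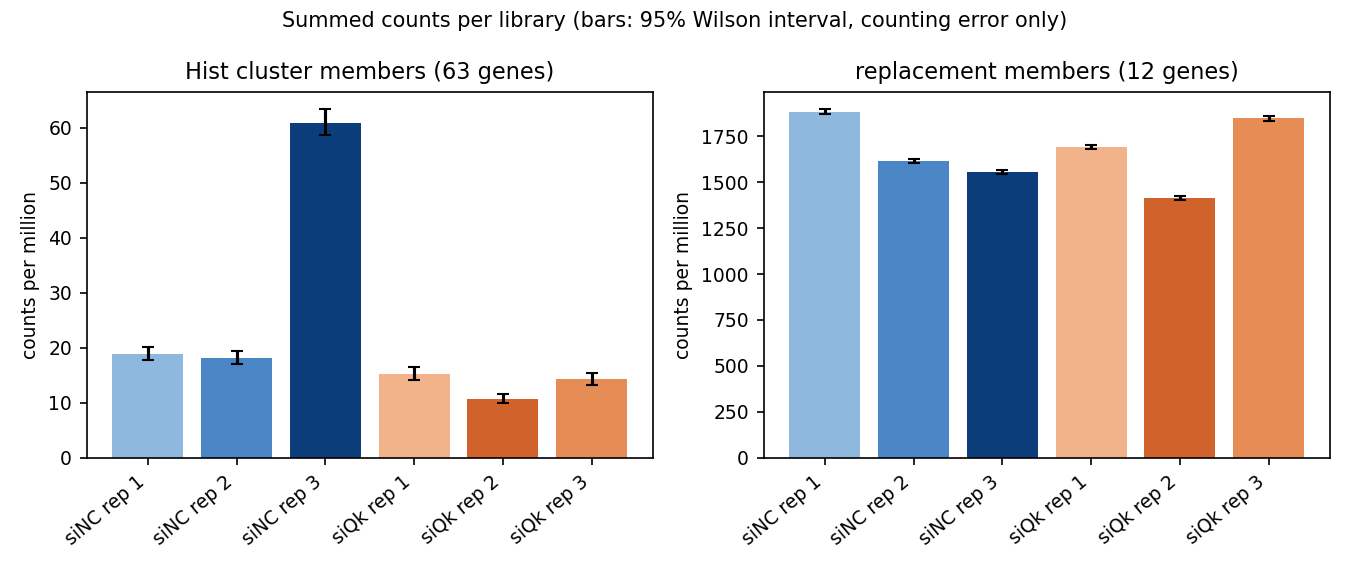
Summed CPM of the 63 Hist members (left) and the 12 replacement members (right) in each library, with 95% Wilson intervals for counting error. The Hist bar of siNC replicate 3 stands at 60.9 against 10.7 to 19.0 in the other 5 libraries, while the replacement bars range from 1414 to 1883 without separating the groups.

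Of the 11 Hist members with a mean of 5 or more counts over the other 5 libraries, all 11 were highest in siNC replicate 3, at 1.49 to 16.3 times the median of the others (median 5.51). Of 11 replacement members, 0 were highest and 5 lowest in that library (median 0.846), and over 14774 genes 15.6% were highest and 30.8% lowest there. The excess was unequal among the genes. Hist1h1d, a linker histone gene, had 0.953 RPKM in siNC replicate 3 and 0.0396 to 0.0878 RPKM elsewhere. Hist2h3c1, an H3 gene, had 1.81 RPKM there and 0.0921 to 0.278 RPKM elsewhere, while Hist2h2be had 1.87 against 0.992 to 1.54 RPKM. Of 27 listed RNAs without a poly-A tail 15 were found, and in sum they were not raised in that library. The ribosomal precursor Rn45s was lowest there, with 118 RPKM against 147 to 218, and the 14 others summed to 6.33 RPKM against 7.28 to 8.78. These 14 had 0 to 30 counts each there, 6 of them 0, and Rnu73b alone was highest there (1.31 RPKM from 4 counts). Neuroblastoma markers were low in siNC replicate 3, with a median deviation of -0.50 (log2) from each gene's mean over the libraries, and motor neuron and neuron markers had -0.32. The 4 tested of the 15 markers of other cell types had their highest median deviation, 0.27, in siNC replicate 3 and their lowest, -0.62, in siQk replicate 2, as the tested Hist members did. Whether these differences have a part in the Hist levels was not tested.

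The comparison of siQk with siNC asks whether histone transcripts change when Qk is depleted. Of the 75 members 15 had a mean log2 CPM above 0 and were tested, 5 Hist and 10 replacement members. None of the 15 met the call (an edgeR p under 0.01 that stayed under 0.1 after adjustment), which 0.0079% of 12665 genes met, Qk alone. DESeq2 called 1 of the 15, Hist1h1c, where it called 19 of all 12665 genes (0.15%). At an unadjusted p under 0.05 in edgeR there were 5 of 15 members, where 2.89% of all genes were. Without siNC replicate 3 there was 1 of 14 (4.43% of all genes). There were 3 of 15 without siNC replicate 1 (538 of all 12643 genes) and 3 of 15 without siQk replicate 3 (292 of all 12674 genes). Of the 5, 4 were Hist members with lower values in siQk (1.69% of all genes were lower at that p) and 1 was H3f3a, with higher values (1.2% of all genes). One of the 4, Hist1h2bc, passed the filter only through siNC replicate 3, so its part in this count and in the Hist median was fixed by that library. The adjusted p of each was 0.9996 over all genes. The groups did not overlap for 5 of the 15 members, against 8.52% of all genes, 4 with lower and 1 with higher values in siQk. The median log2 fold change was -1.07 over the 5 tested Hist members, -0.037 over the 10 replacement members and 0.0034 over all genes. Without siNC replicate 3 it was -0.63 over 4 Hist members. In bulk RNA, fewer cells of a kind, for example fewer cells in S phase, and less RNA per cell cannot be told apart.

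Hist1h1c (Entrez 50708, chr13:23738808-23740367, plus strand) encodes the linker histone H1.2 and has a single exon that overlaps no other annotated gene. Its levels were 3.07, 4.33 and 15.8 RPKM in siNC replicates 1, 2 and 3 and 2.52, 1.14 and 2.24 RPKM in siQk replicates 1, 2 and 3. The groups did not overlap (lower in siQk, as for 4.07% of all genes), and siNC replicate 3 lay 3.66 times above the next library. The group levels were 7.75 ± 7.04 and 1.96 ± 0.730 RPKM (SD, n = 3). The log2 fold change was -2.03 (SE 0.82, p 0.00746, edgeR adjusted p 0.9996) and -0.91 without siNC replicate 3 (edgeR p 0.0475, adjusted p 0.895). In DESeq2 the adjusted p was 0.0961, the only alternative in which it met the call, out of an adjusted p range of 0.0961 to 0.9999.

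Hist3h2ba and Hist3h2a, an H2B and an H2A gene, lie on the plus strand of chromosome 11 at 58948920 to 58949533 and 58954685 to 58956830. Hist3h2ba had 7.03, 5.42 and 12.5 RPKM in siNC and 4.99, 1.99 and 5.18 RPKM in siQk. Hist3h2a had 1.15, 1.11 and 2.15 RPKM in siNC and 1.05, 0.469 and 0.665 RPKM in siQk. In both genes siNC replicate 3 was highest, siQk replicate 2 lowest, and the groups did not overlap. The log2 fold changes were -1.07 (SE 0.59, edgeR p 0.0387) and -1.05 (SE 0.47, edgeR p 0.0312). Without siNC replicate 3 they were -0.62 and -0.64, with p of 0.200 and 0.145 in edgeR.

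Hist1h2bc, an H2B gene, showed the lowest fitted fold change of the 15 tested members and rested on one library. It had 1.38, 0.696 and 8.82 RPKM in siNC and 0.844, 0.359 and 0.894 RPKM in siQk, so siNC replicate 2 lay below siQk replicates 1 and 3 and the groups overlapped. The log2 fold change was -2.43 (SE 1.16, edgeR p 0.0197), and without siNC replicate 3 the gene no longer passed the filter on low counts. Fitted with no filter and without that library, a setting chosen after seeing the data, it was -0.58. Hist2h2be, also an H2B gene, did not share the pattern. It had 1.26, 0.992 and 1.87 RPKM in siNC and 0.997, 1.54 and 1.33 RPKM in siQk, with a log2 fold change of -0.13 (SE 0.34).

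**Figure D4:**
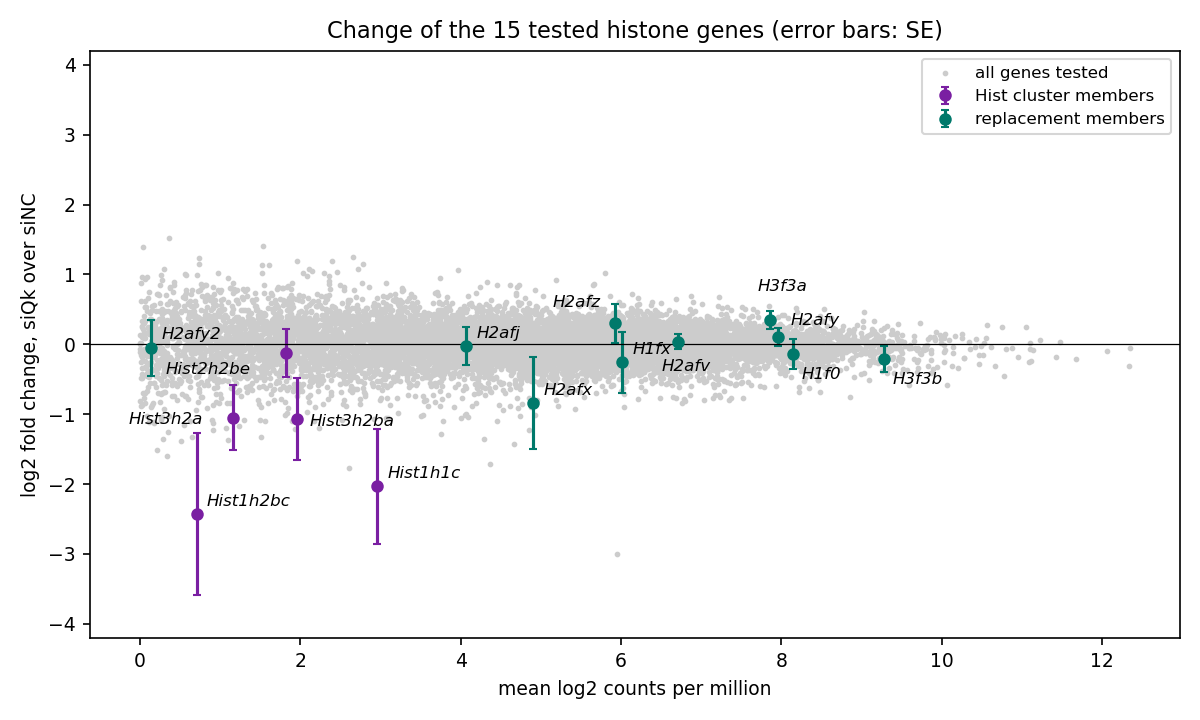
Log2 fold change of siQk over siNC against the mean log2 CPM for 12665 genes (grey), with the 5 tested Hist members (purple) and the 10 tested replacement members (green) and their SE. Of the Hist members 4 lie between -2.43 and -1.05 with wide error bars and Hist2h2be at -0.13, while the replacement members lie between -0.84 and 0.35.

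Among the replacement members, H3f3a alone had an unadjusted p under 0.05 in the main edgeR test. Among the alternatives H3f3a stayed under 0.05 only with total counts, with filterByExpr and without siQk replicate 2 (edgeR p 0.0406, 0.0493 and 0.0228). In DESeq2, with no filter and with the replicate block it was above 0.05 (p 0.0544, 0.0588 and 0.0707 in these models). H2afx was under 0.05 in the same models (p 0.0313, 0.0353 and 0.0216). H3f3a had 149, 152 and 120 RPKM in siNC and 191, 160 and 195 RPKM in siQk, without overlap between the groups (higher in siQk, as for 4.45% of all genes). Its log2 fold change was 0.35 (SE 0.13, edgeR p 0.0487, adjusted p 0.9996), and without siNC replicate 3 it was 0.27 (edgeR p 0.102). H3f3b, which encodes the same protein, had 349, 295 and 307 RPKM in siNC and 302, 218 and 312 RPKM in siQk. These values overlapped, with a log2 fold change of -0.22 (SE 0.19).

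H2afx, the replacement member with a stem-loop, was the other one whose groups did not overlap. It had 26.2, 31.6 and 26.3 RPKM in siNC and 23.2, 5.54 and 18.9 RPKM in siQk. siQk replicate 2 lay far below the other 5 libraries, and siNC replicate 3 was not raised. The log2 fold change was -0.84 (SE 0.65, edgeR p 0.072), and -0.44 without siQk replicate 2 (edgeR p 0.0480). That library was also the lowest of the 6 for 4 of the 5 tested Hist members and for 24.1% of all genes tested.

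Other replacement members had log2 fold changes close to their standard errors or below them. H2afz had 0.30 (SE 0.28), with 36.2 RPKM in siNC replicate 3 against 64.3 to 75.7 RPKM elsewhere, and it was 0.073 without siNC replicate 3. H1fx had -0.26 (SE 0.43), H1f0 -0.14 (SE 0.22), H2afy 0.10 (SE 0.13), H2afy2 -0.05 (SE 0.40), H2afv 0.04 (SE 0.11) and H2afj -0.02 (SE 0.28). None of these 7 had separate groups.

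Genes that process histone mRNA, carry histones or act in DNA replication were set beside the members, in lists chosen with earlier results known. For processing and decay of histone mRNA, 28 of 29 genes were tested, 0 were called, and at an unadjusted p under 0.05 there were 0 lower and 2 higher in siQk (1.2% of all genes were higher), Casp8ap2 (0.54) and Snrpg (0.71) on the log2 scale. Snrpg had 0.47 without siNC replicate 3 (edgeR p 0.111) and Casp8ap2 had 0.39 without siNC replicate 1 (edgeR p 0.0551). The list median was 0.045. Slbp, which binds the stem-loop, had 65.9, 71.9 and 63.9 RPKM in siNC and 76.7, 90.5 and 85.6 RPKM in siQk. Its log2 fold change was 0.30 (SE 0.07, edgeR p 0.0642, adjusted p 0.9996), with groups that did not overlap. Of the 28 tested genes of this list, 4 had separate groups, all with siQk higher (4.45% of all genes did). Among histone chaperones and deposition factors 29 of 32 genes were tested, 0 were called, and 1 was higher at an unadjusted p under 0.05, Nasp, a chaperone of H1 and H3 (0.40, and 0.33 with an edgeR p of 0.131 without siQk replicate 3). The list median was 0.080.

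For DNA replication and cell division all 25 genes were tested and 0 were called. Of these, 22 had values above 0 on the log2 fold change scale and 3 below, where 6438 of all 12665 genes tested were above 0. The median was 0.24, and 9 had separate groups with siQk higher (4.45% of all genes did). At an unadjusted p under 0.05 there were 5 with higher values (1.2% of all genes), namely Pcna, the sliding clamp of DNA polymerases (0.37), the helicase subunits Mcm3 (0.42) and Mcm4 (0.42), the origin-licensing factor Cdc6 (0.58) and Gins2 (0.70). Without siNC replicate 3 only Mcm4 and Cdc6, 2 of the 5, remained under 0.05, and Gins2 had 0.41 (edgeR p 0.103). Without siQk replicate 2, the library highest for this list, 1 of the 5, Mcm4, was under 0.05, and Cdc6 had 0.38 (edgeR p 0.0647). The median deviation of this list from each gene's mean was -0.19, 0.0014 and -0.16 (log2) in siNC replicates 1, 2 and 3 and 0.018, 0.25 and 0.17 in siQk replicates 1, 2 and 3. For the 5 tested Hist members it was 0.22, -0.022 and 1.26 in siNC and -0.39, -1.43 and -0.37 in siQk. These 5 include Hist1h2bc, which passed the filter only through siNC replicate 3, so its part in the 1.26 was fixed by that library. The library highest for Hist members was thus among the lower ones for replication genes, and the library lowest for Hist members was the highest for replication genes. The part of either in the other was not tested.

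**Figure D5:**
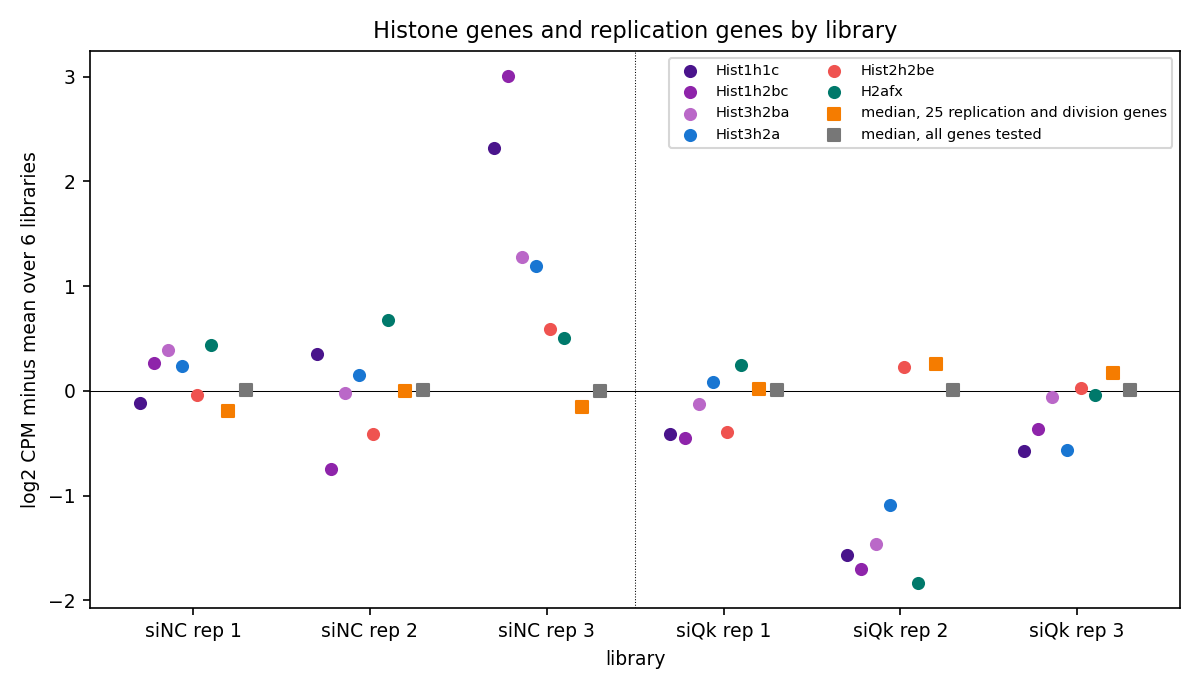
Log2 CPM minus the mean over 6 libraries for the 5 tested Hist members and H2afx (circles), with the median over 25 replication and division genes and over all genes tested (squares). Hist1h1c and Hist1h2bc stand more than 2 log2 units high in siNC replicate 3, 4 Hist members and H2afx lie more than 1 unit low in siQk replicate 2, and the replication median runs from -0.19 to 0.25.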

How the data were processed

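NSC-34 cells were transfected with control siRNA or siRNA against Qk (3 libraries each). Libraries were prepared by the authors from poly-A RNA (TruSeq version 2, which does not mark strand) and sequenced as 75-base read pairs, with alignment by OLego and counting by Quantas. The deposited files hold expected counts per gene, exon lengths and RPKM values. The deposited RPKM could be rebuilt from the counts, the exon length and the column total. The labels name the build mm10 and the files hold no coordinates, so positions come from GENCODE M21 (GRCm38) and promoters from RefSeq (68 of 75 members matched).

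Expected counts were rounded, scaled by TMM and kept where mean log2 CPM was above 0 (12665 genes). siQk and siNC were compared with the quasi-likelihood test of edgeR 4.0.16 in R 4.3.3, with all 6 libraries and no other term, and p-values were adjusted by the Benjamini-Hochberg method. The study used the same cutoffs (p under 0.01, adjusted p under 0.1). It reported L3hypdh, Daam2 and Snap23 as lowered besides Qk, and the main test here called none of these 3. Fold changes are log2 of siQk over siNC, and their SE comes from TMM-scaled log2 CPM (prior count 2). Single levels can reach a two-sided exact permutation p of 0.1 at best with 3 against 3, so none is quoted. Depth was 43000503 to 53565950 counts per library. Alternatives were DESeq2 size factors, total counts, no filter, filterByExpr, the edgeR exact test, DESeq2 1.42.0, a replicate block and leaving out each library.

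The members, lists and tests were chosen with earlier results of these data known. Genes named are Hist1h1c, Qk, Slbp, the 12 members of highest mean RPKM, the leading member of each class, members with the largest rise and fall, and members or list genes at an unadjusted p under 0.05, and other genes were chosen after their values were seen. The scripts were tested on simulated counts.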

Additional observations from a re-analysis of the deposited data

How the results depend on the processing

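The count of changed genes was 5 by the exact test of edgeR, 19 by DESeq2, and 0 (without siNC replicate 1) or 1 when single libraries were omitted. The count of histone members changed was 1 in DESeq2 and 0 with any library omitted. The median of Hist members was negative in all 14 alternatives. It lay between -1.41 and -0.63 with single libraries omitted and was -0.14 over 56 members with no filter and without siNC replicate 3, against -0.76 with no filter alone. That of replacement members lay between -0.13 (without siNC replicate 3) and 0.15 (without siNC replicate 1). Summed Hist RPKM in siNC was 30.04, with an SD of 20.8 that siNC replicate 3 sets (18.04 without it), and TMM scaling moved it by less than that SD. Over 321 refits of 23 named genes, 9 changed sign. These were H2afv (-0.065 to 0.098 with single libraries omitted, and -0.0097 with no filter and without siNC replicate 3), H1fx (-0.55 to 0.025) and H2afj (-0.23 to 0.24, and 0.021 with the replicate block). The cause was not tested. Same-numbered libraries deviated together at correlations of 0.213, 0.018 and -0.17, which did not reach the level set for treating equal numbers as pairs. The replicate block gave 1 changed gene, 0 histone members, and medians of -1.09 (Hist) and -0.028 (replacement). No pair of libraries within a group was a duplicate, since the closest differed by 24.4 times the chi-square per degree of freedom of counting noise. Pairs across the groups were not compared. Depth limits the Hist members with a mean count under 5, for which single fold changes were fitted only without a filter and are not reported.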

Other observations

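Some histone symbols fall outside the naming rule. Cenpa, which encodes the centromeric H3 variant, had 44.2 to 49.96 RPKM in siNC and 48.7 to 56.2 RPKM in siQk, a log2 difference of 0.15 with an SE of 0.07 (adjusted p 0.9996 in edgeR). The oocyte linker histone gene H1foo had 0.0334 to 0.116 RPKM over the 6 libraries, and H1fnt had a value above 0 only in siNC replicate 1, at 0.0148 RPKM. The H2B pseudogene Hist3h2bb-ps had 0.338, 0.136 and 0.550 RPKM in siNC and 0.189, 0.201 and 0.280 RPKM in siQk, highest in siNC replicate 3.

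The 52 Hist members with the lowest mean counts, summed, had 1.96, 1.25 and 3.58 CPM in siNC replicates 1, 2 and 3 and 1.82, 1.12 and 1.30 in siQk, and the 95% Wilson interval of siNC replicate 3 (3.06 to 4.19) lay above those of the other 5 libraries. Hist1h1c held 40.6% of the Hist counts of siNC replicate 3 and 16.5% to 37.08% in the other 5.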
